A study of Mus musculus with 67 samples.

Results

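The 34 genes described here encode enzymes, sensors and transporters of cholesterol and fatty acid metabolism. They were taken by name as known members of these pathways. All 34 were found among the 24461 genes of the second of a pair of RNA sequencing experiments and among the 24421 gene symbols of the pilot. By role, 7 of them belong to the mevalonate branch that leads to farnesyl diphosphate, 11 carry squalene to cholesterol, 5 sense sterols through the transcription factor SREBP, 6 make fatty acids, and 5 belong to the liver X receptors (LXR) and the sterol transporters.

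T cells were sorted from the mouse hypothalamus, joined in the later experiment by the remaining brain, to ask how a high-fat high-sugar (HFHS) diet shapes the T cells that reside there. RNA was sequenced in 67 libraries, 59 in the second experiment and 8 in the pilot. Of the 59, 29 are activated conventional T cells (act in the labels, activated T cells from here on) and 30 are labelled regulatory T cells (Tregs, defined by Foxp3), in 16 groups of 2 to 4 libraries by cell type, tissue, strain (BalbC or BL6 in the labels, written Balb/c and BL6 here) and diet. Each diet comparison sets HFHS diet (HFD in the labels) against a standard diet (SD).

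For these activated T cells, gated as CD4-positive cells without CD25 or Foxp3GFP, high in CD44 and low in CD62L, each library was a pool of cells from 5 mice. How many mice a Treg library of that experiment pooled, and how long its mice were fed, is not stated. HFHS feeding began at 6 weeks of age, and in the diet experiments Balb/c mice were female and C57Bl/6J mice male, so strain and sex cannot be told apart. The pilot holds 1 library per condition. Its diet libraries pooled 9 female Foxp3 GFP BalbC mice after 16 weeks on either diet. They were sorted into T cells labelled naive and CD4+ CD25+ Foxp3GFP+ Tregs. The cells labelled naive are CD4+ CD44- by label, but CD4+ CD25- with low to intermediate CD44 by the gate in the paper. The other pilot libraries pooled 7 females each of ob/ob mice, obese for want of leptin, or of Bl6 wild types (WT). They were sorted into CD4+ T cells and CD25hi Tregs.

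Cells build cholesterol from acetyl-CoA by way of mevalonate and squalene, and they build fatty acids from the same precursor. When sterols run low, SREBP proteins leave the endoplasmic reticulum with the escort protein Scap and switch on the enzymes of both routes, while Insig proteins hold them back when sterols are plentiful. When sterols accumulate, LXR proteins switch on efflux pumps such as Abca1 and Abcg1, and dividing T cells are known to draw on the synthesis routes to make membrane.

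Libraries of the second experiment held 1724154 to 38482282 estimated counts. Those of activated T cells held 13196697 to 20538319 in the hypothalamus, against 11340062 to 28187003 in the rest of the brain, and Tregs of the rest of the brain held 8938478 to 24985601. Levels are given in CPM, a library's counts scaled to a common total. Intervals and floors quoted anywhere cover counting error only, since the reads carried no molecular identifiers. Within groups, none of 82 pairs of libraries differed as little as sampling noise allows, the lowest chi-square per gene being 75.7.

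The sorted cells carried the markers of their labels in most libraries. The summed level of 8 T-cell genes, 7 of which were detected, had a median of 10087 CPM in activated T cells of the rest of the brain (lowest 8937, highest 11937) and 10980 CPM in those of the hypothalamus (10120 to 11968). Foxp3 had a median of 385 CPM in Tregs of the rest of the brain (241 to 767), against 6.09 CPM in activated T cells of that tissue (0.0355 to 12.6) and 3.93 CPM in those of the hypothalamus (0 to 13.8). Hypothalamic Tregs, without the 2 libraries named next, had a median of 276 CPM (0.429 to 862). Foxp3 thus separated both cell types without overlap in the rest of the brain. The 5 genes of the activated conventional T-cell list, led in most libraries by Ccl5, summed to a median of 3630 CPM in activated T cells of the rest of the brain and 817 CPM in Tregs of that tissue.

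In Tregs of the hypothalamus, 2 libraries stood apart from the rest. In the BL6 SD library of pool 11_15, the 6 endothelial genes summed to 17015 CPM with Ly6c1 highest, the T-cell list to 192 CPM, and Foxp3 to 1.21 CPM. In the Balb/c SD library of pool 32_36, 9 of 10 microglia genes were detected and summed to 29696 CPM, the T-cell list reached 5780 CPM, and Foxp3 was at 0.0977 CPM. Another 2 Treg libraries of the hypothalamus had Foxp3 under 10 CPM, the BL6 HFHS library of pool 06_10 and the BL6 SD library of pool 43_47. Counts of edgeR calls and medians of fold changes that rest on hypothalamic Tregs are given with and without the 2 libraries that stood apart, an alternative added after the data were seen.

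Across the 34 genes, the mean of log2(CPM + 1) was alike in activated T cells of both tissues, with a median of 4.09 over 16 libraries of the hypothalamus (3.60 to 4.52) and 4.07 over 13 libraries of the rest of the brain (3.30 to 4.74). Tregs of the rest of the brain reached a similar median of 3.87 over 14 libraries but spread more widely, from 2.56 to 4.79. Tregs of the hypothalamus lay far lower, at a median of 1.79 over 16 libraries, with a range of 0.18 to 4.15. Without the libraries that stood apart, their range was 0.70 to 3.68 around the same median. No library of activated T cells was as low as 13 of these 14 Treg libraries, as the plot of the mean level per library shows. A mean of log2(CPM + 1) falls with every gene at 0, so it does not separate a lower level from patchier detection. In bulk samples, fewer cells of a type and less RNA per cell cannot be told apart.

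**Figure D1:**
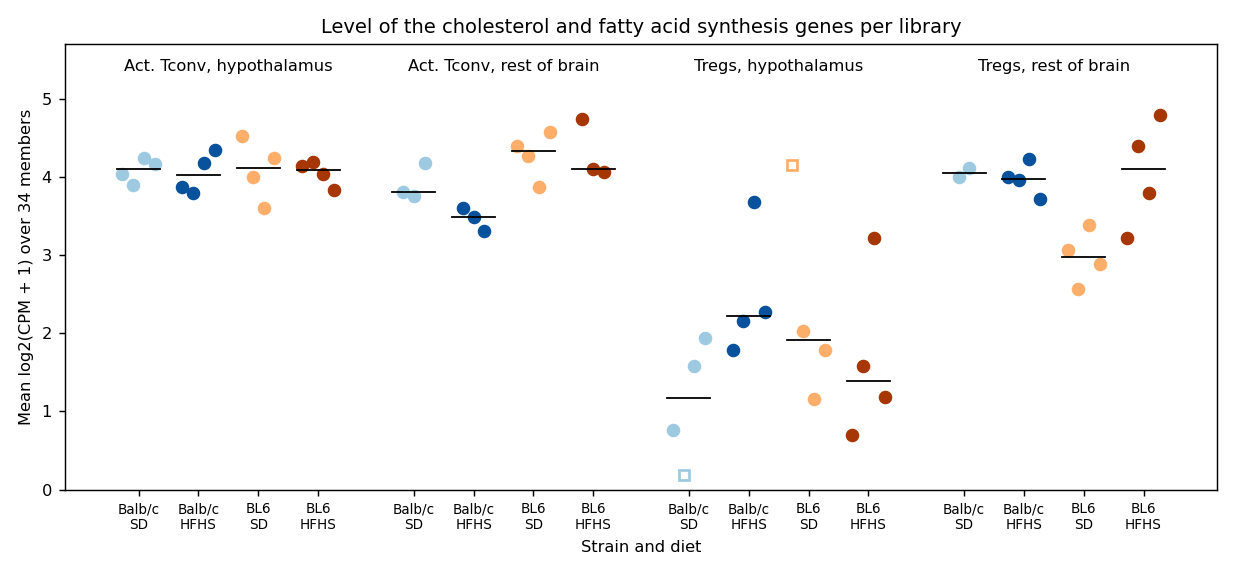
Mean log2(CPM + 1) over the 34 genes in each library of the second experiment, by cell type, tissue, strain and diet, with a bar at each group's median and open squares for the 2 libraries that stood apart. Hypothalamic Tregs had a median of 1.79, against 3.87 to 4.09 in the other sets of libraries.

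In the hypothalamus, the gap between cell types was smaller over all genes than over the 34, but these sets were not matched for level. All genes lay lower than the 34 in activated T cells too, so the gaps do not show the 34 to be particularly low in Tregs. The mean over all genes with more than 10 counts in a library had a median of 3.10 in activated T cells of the rest of the brain, 2.98 in those of the hypothalamus, 2.86 in Tregs of the rest of the brain and 1.70 in Tregs of the hypothalamus. A median of 20 of the 34 genes had a count of 0 in a hypothalamic Treg library (1 to 27, and 12 to 27 without the libraries that stood apart), against 6.5 in Tregs of the rest of the brain (2 to 14), 4 in activated T cells of the hypothalamus (0 to 5) and 1 in those of the rest of the brain (0 to 3). The number of genes with more than 10 counts ranged from 2109 to 9899 in hypothalamic Tregs and from 9014 to 10133 in activated T cells of that tissue, and its part in the low level was not tested.

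Per length of transcript, in TPM, which divides counts by transcript length before scaling, Ebp and Fdps had the highest medians. In activated T cells of the rest of the brain, Ebp, the isomerase of a late sterol step, had a median of 66.8 TPM (38.7 to 112), Fdps, which makes farnesyl diphosphate, 64 TPM (31 to 119), and Sc5d, a late sterol desaturase, 63.3 TPM (10.5 to 135). Msmo1, a sterol demethylase component, followed at 50.8 TPM, Nr1h2, the LXR found in most tissues, at 45.3 TPM, and Acat2, an acetyl-CoA acetyltransferase at the head of the route, at 34.4 TPM. These 6 levels overlapped between neighbours in that order, and the place of Sc5d rests on BL6 libraries, at 63.3 to 135 TPM against 10.5 to 34.3 TPM in Balb/c. The same 6 genes led in activated T cells of the hypothalamus, where Fdps had 81.4 TPM, Ebp 79.2 TPM and Nr1h2 70.1 TPM.

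Enzymes between these steps were lower per length. Hmgcs1, which makes HMG-CoA, had a median of 7.48 TPM, Sqle, the squalene epoxidase, 5.13 TPM, and Lss, the lanosterol synthase, 1.09 TPM in activated T cells of the rest of the brain. Among the sensors there, Insig2 had 20.6 TPM, Srebf2, the SREBP best known for cholesterol genes, 9.03 TPM, Srebf1, best known for fatty acid genes, 5.01 TPM, and Scap 3.36 TPM. The fatty acid route was uneven, with Acly, which frees cytosolic acetyl-CoA, at 20.7 TPM and the fatty acid synthase Fasn at 1.24 TPM. Scd1, a fatty acid desaturase, was near absence at 0.0443 TPM, with its relative Scd2 at 2.33 TPM. Of the LXR group, Abcg1 had 9.2 TPM and Stard4, a carrier of cholesterol between membranes, 4.5 TPM, while the second LXR, Nr1h3, was at 0 in 8 of 13 libraries and Abca1 had a median of 0.0686 TPM.

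Tregs of the rest of the brain shared the leading genes, with Ebp at a median of 106 TPM (29.3 to 200), Msmo1 at 72.9 TPM (0 to 245), Fdps at 68.6 TPM (0 to 139) and Nr1h2 at 64.1 TPM (11.3 to 175). In Tregs of the hypothalamus, Ebp kept a median of 116 TPM (0.068 to 277) and Nr1h2 of 44.9 TPM (0 to 156), whereas Fdps had 7.14 TPM (0 to 91.8). A further 20 of the 34 genes had a median of 0 TPM there, among them Mvk, Cyp51, Lss, Insig1 and Fasn. By role, the mean level of the mevalonate genes had a median of 4.54 in activated T cells of the hypothalamus and 1.20 in Tregs of that tissue, and that of the sensors 4.68 and 1.49. For the genes from squalene to cholesterol these medians were 4.60 and 2.45, for the fatty acid genes 2.95 and 1.06, and for the LXR group 3.14 and 1.90.

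In activated T cells of the rest of the brain, 6 of the 34 genes were lower in Balb/c than in BL6 mice and none was higher, where strain differences were frequent over all genes. The lower genes were Acat2 and Hmgcs1 of the mevalonate branch, Lss and Sc5d of the later route, the sensor Srebf2 and the receptor Nr1h2. Differences came to between 2.05-fold for Nr1h2 and 3.81-fold for Lss. No gene of the fatty acid group was among them. Of all 12257 genes tested, 12.2% were called higher and 11.4% lower.

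The clearest difference was that of Sc5d, which lay between 24.5 and 68.4 CPM with a median of 49.3 in 6 Balb/c libraries and between 110 and 208 CPM with a median of 141 in 7 BL6 libraries. Every Balb/c library was below every BL6 library. Its log2 fold change was -1.33 (SE 0.22, adjusted p = 0.000288, edgeR). Within diets, Sc5d had medians of 34.3 CPM in Balb/c HFHS and 56.3 CPM in Balb/c SD libraries, against 151 and 136 CPM in the same diets of BL6.

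Acat2 had a lowest, median and highest level of 10.1, 24.4 and 51.1 CPM in Balb/c libraries and of 54.9, 69.1 and 91.8 CPM in BL6 libraries, without overlap. Its log2 fold change was -1.27 (SE 0.32, adjusted p = 0.00646, edgeR), and all 6 Balb/c libraries lay below all 7 of BL6. Hmgcs1 had 9.87, 13.9 and 25.5 CPM in Balb/c and 22.7, 36.8 and 66.8 CPM in BL6 libraries. There 5 of 6 Balb/c libraries lay below every BL6 library, at a log2 fold change of -1.07 (SE 0.34, adjusted p = 0.0288, edgeR).

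Lss had a lowest, median and highest level of 0.425, 4.78 and 6.65 CPM in Balb/c and 5.54, 14.5 and 44.3 CPM in BL6 libraries. In 3 of 6 Balb/c libraries it lay below every BL6 library, at a log2 fold change of -1.93 (SE 0.66, adjusted p = 0.0422, edgeR). Srebf2 had 9.27, 15 and 42.9 CPM in Balb/c and 28.5, 48.1 and 95.3 CPM in BL6. Here 4 of 6 Balb/c libraries lay below all of BL6, at a log2 fold change of -1.09 (SE 0.35, adjusted p = 0.0318, edgeR). Nr1h2 had 22.5, 29.4 and 65.4 CPM in Balb/c and 73.6, 88.8 and 116 CPM in BL6. Its groups did not overlap, at a log2 fold change of -1.03 (SE 0.25, adjusted p = 0.00492, edgeR).

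Of the 34 genes, 32 passed the count filter in this comparison, 0 were called higher and 6 lower, and 8 had an unadjusted p under 0.05. The median log2 fold change was -0.28 over these members and -0.03 over all genes tested, with 8 members above 0 and 24 below. By role, the mevalonate genes had a median of -1.07 with 2 of 7 called, those from squalene to cholesterol -0.27 with 2 of 11, the sensors -0.55 with 1 of 5, the fatty acid genes -0.24 with 0 of 5 tested, and the LXR group 0.00 with 1 of 4 tested. Mvd, a mevalonate enzyme, had -1.87 (SE 0.73, adjusted p = 0.0715, edgeR) with 6 of 7 BL6 libraries above every Balb/c library. DESeq2 called Mvd too, at -1.84 (SE 0.65), and with it 7 members lower and 0 higher, against 14.6% and 15.8% of all genes.

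The calls of Sc5d, Acat2 and Nr1h2 held whichever of the 13 libraries was left out, with adjusted p values up to 0.00118, 0.0169 and 0.0146. That of Hmgcs1 was lost in 5 cases, without BL6 SD pool 11_15 (adjusted p = 0.0634), BL6 HFHS pool 33_37 (0.087), Balb/c SD pools 37_41 (0.0637) and 32_36 (0.0546), and Balb/c HFHS pool 15_21 (0.056). That of Lss was lost in 8 cases, without BL6 SD pools 67_71 (0.101) and 01_05 (0.0579), BL6 HFHS pool 33_37 (0.162), Balb/c SD pools 37_41 (0.0603), 32_36 (0.0605) and 42_46 (0.0532), and Balb/c HFHS pools 47_25 (0.0649) and 15_21 (0.0685). It was lost with voom as well, and its adjusted p was 0.00866 to 0.0542 over other settings. That of Srebf2 was lost in 7 cases, without BL6 SD pools 67_71 (0.0533) and 62_66 (0.0518), BL6 HFHS pool 33_37 (0.0928), Balb/c SD pool 32_36 (0.0684), and Balb/c HFHS pools 47_25 (0.0564), 15_21 (0.0729) and 16_20 (0.0535). Mvd was gained without BL6 SD pool 62_66 (-2.09, adjusted p = 0.0347). Nr1h3 exceeded 10 counts in only 2 libraries, both Balb/c (3.18 and 3.44 CPM), and so failed the filter with all libraries present. Where the filter asked for fewer libraries it was called, without Balb/c HFHS pools 47_25 (0.0311) or 15_21 (0.0311) or Balb/c SD pools 32_36 (0.0275) or 42_46 (0.0336), and with more than 10 counts in total (0.0401), but these calls rest on those 2 libraries and give no direction for the strains. It was at 0 in 3 of 6 Balb/c and 5 of 7 BL6 libraries.

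**Figure D2:**
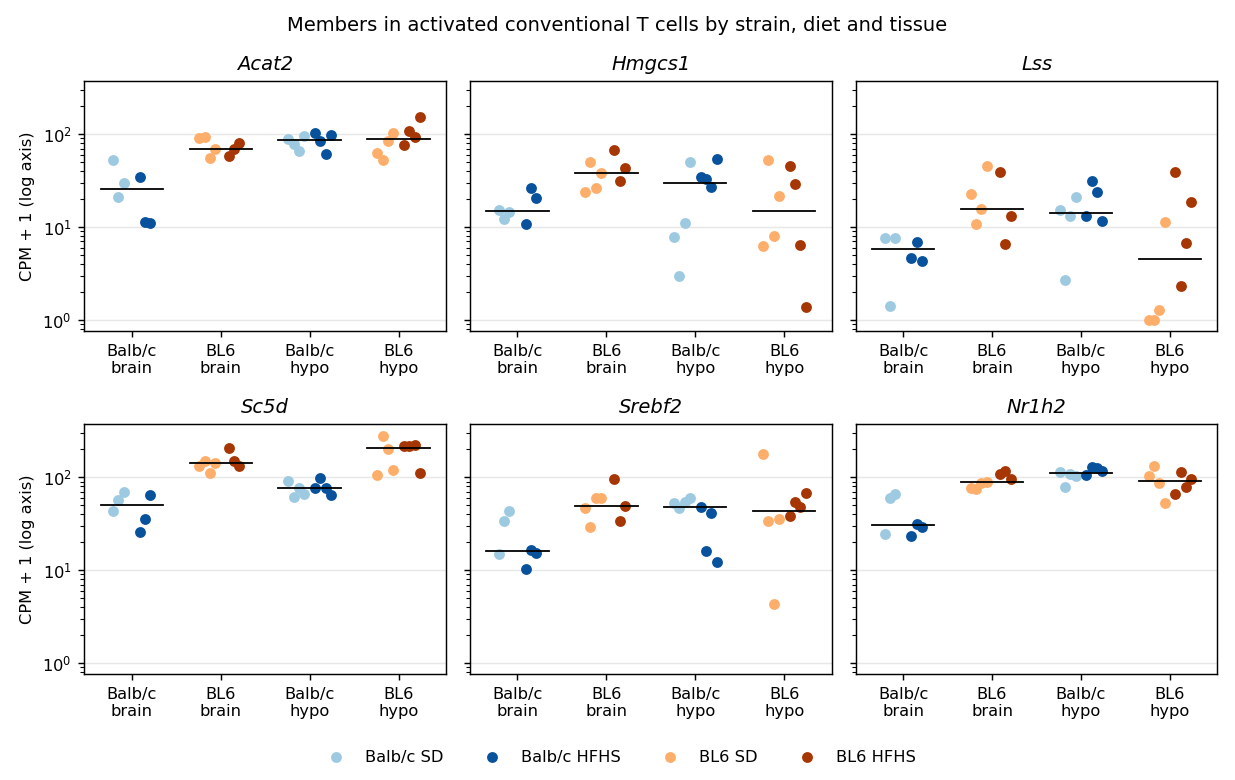
CPM + 1 on a log axis of the 6 genes called between strains in activated T cells of the rest of the brain, in each library of either tissue (brain stands for the rest of the brain and hypo for hypothalamus), with a bar at each median. Sc5d separates the strains in both tissues, with Balb/c libraries at 24.5 to 97.7 CPM and BL6 libraries at 105 to 281 CPM.

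Of 30 further genes of the same pathways, 26 were tested in this comparison and 4 were called, all lower in Balb/c. Acss2, which makes acetyl-CoA from acetate, had 1.44, 4.47 and 13.5 CPM in Balb/c against 48.8, 80.2 and 95.8 CPM in BL6, at -3.62 (SE 0.43, adjusted p = 1.8e-05, edgeR) with no overlap. Soat1, which stores cholesterol as esters, had 2.59, 12 and 19.8 CPM against 34, 43.3 and 90.9 CPM, at -1.85 (SE 0.41, adjusted p = 0.00293, edgeR), also with no overlap. Slc25a1, the mitochondrial citrate carrier, had 5.53, 12.7 and 25.7 CPM against 17.7, 37 and 61.3 CPM, with overlap, at -1.32 (SE 0.39, adjusted p = 0.0191, edgeR). The last of the 4 was Mbtps1, a protease that releases SREBP.

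Several markers of other cells moved with strain in these 13 libraries, and their part in the gene differences was not tested. The pair of CD8 genes, led by Cd8b1, although the gate given for CD4 T cells leaves out cells with CD8a, summed to 276, 348 and 479 CPM (lowest, median and highest) in Balb/c and 1.94, 39.8 and 736 CPM in BL6. The 6 endothelial genes, of which 2 or 3 were detected and Ly6c1 mostly led, summed to 119, 196 and 258 CPM in Balb/c and 72.4, 95.7 and 147 CPM in BL6. The 9 oligodendrocyte genes, led by Cnp in 12 of 13 libraries, summed to 105, 184 and 622 CPM in Balb/c and 200, 357 and 448 CPM in BL6. All of these ranges overlapped between strains.

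The 10 microglia genes were all detected in the Balb/c SD library of pool 42_46, where they summed to 857 CPM. The macrophage list, led by Ccr2, had medians of 276 and 224 CPM, the neuron list 12.1 and 3.65 CPM, the astrocyte list 4.58 and 3.94 CPM, the B-cell list 6.45 and 2.34 CPM, and the erythroid list 0.0882 and 0 CPM. The T-cell list had 8937 to 10087 CPM in Balb/c and 9696 to 11937 CPM in BL6, the Treg list medians of 746 and 712 CPM, and the 18 cell cycle genes, led by Pcna in 12 of 13 libraries, medians of 568 and 534 CPM. The share of all counts held by Tmsb4x was 3.66% to 6.01% in Balb/c and 1.79% to 2.77% in BL6, without overlap.

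Strain differences in activated T cells of the hypothalamus were fewer among the 34 genes, and 1 of them was called. Sc5d had 60.2, 76 and 97.7 CPM (lowest, median and highest) in 8 Balb/c libraries and 105, 208 and 281 CPM in 8 BL6 libraries. Every Balb/c library was below every BL6 library, at a log2 fold change of -1.30 (SE 0.22, adjusted p = 0.00166, edgeR), which held without any 1 of the 16 libraries at adjusted p values of 0.000433 to 0.00593. Over other settings its adjusted p was 1.5e-06 to 0.0023. Of 31 members tested, 0 were called higher and 1 lower, against 0.996% and 1.11% of all 10846 genes, and 4 had an unadjusted p under 0.05. Over members the median log2 fold change was -0.14, and over all genes 0.01, with 12 members above 0 and 19 below, and 0 of 24 further pathway genes were called.

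Other genes called in the rest of the brain overlapped between strains in the hypothalamus. Acat2 had 60.5, 85 and 103 CPM in Balb/c and 51.5, 88 and 154 CPM in BL6 libraries there, and Nr1h2 had 78.1, 110 and 129 CPM against 52.3, 90.5 and 131 CPM. Hmgcs1 had medians of 29.1 and 13.7 CPM, Lss of 13.2 and 3.5 CPM, and Srebf2 of 46.6 and 42.6 CPM. Whether a strain difference differed between tissues was not tested. The plot of fold changes sets both tissues side by side.

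**Figure D3:**
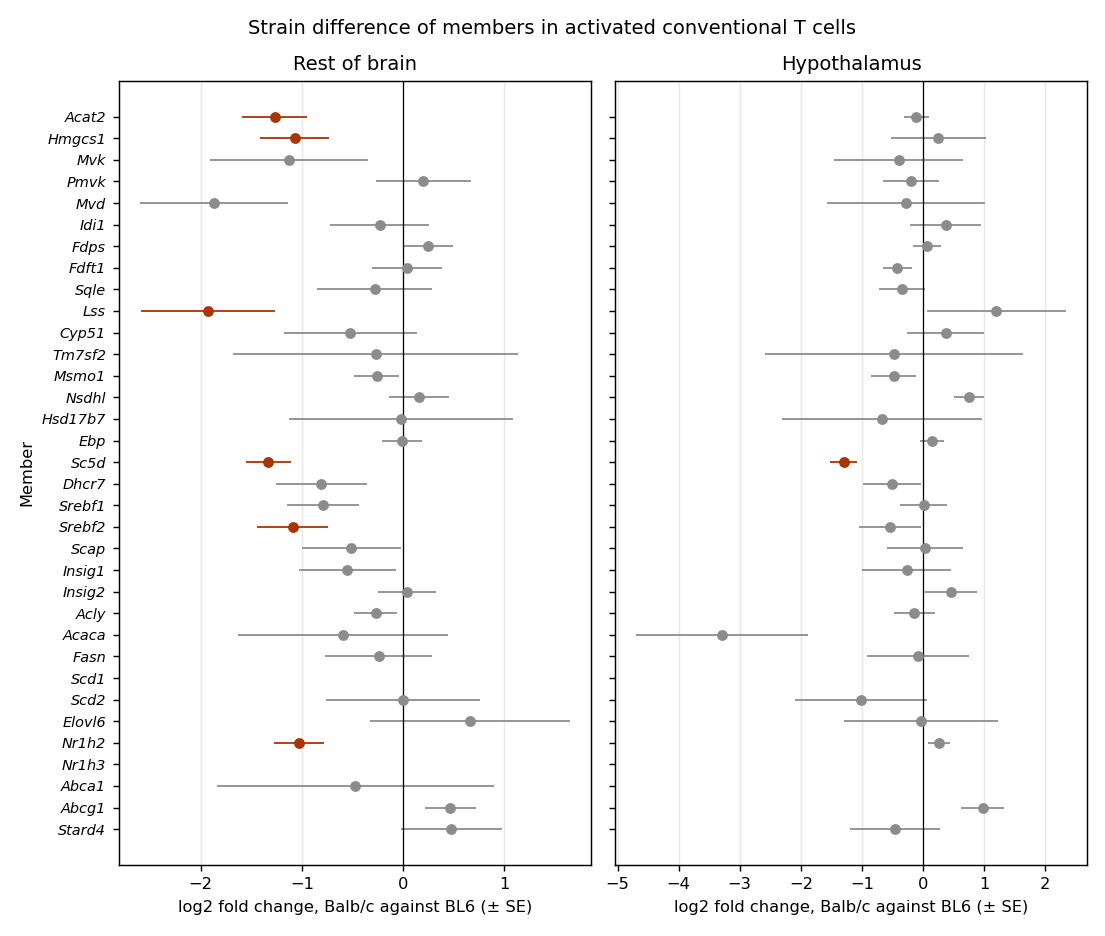
Log2 fold change of Balb/c against BL6, with an SE derived from the edgeR F statistic, for each tested member in activated T cells. The rest of the brain is on the left and the hypothalamus on the right, with members called by edgeR in colour. Sc5d is the only member called in both panels, at -1.33 and -1.30.

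In Tregs, no member was called between strains. Sc5d had 71.8, 98.1 and 125 CPM in 6 Balb/c and 49.8, 90.3 and 183 CPM in 8 BL6 Treg libraries of the rest of the brain, which overlapped, at -0.17 (SE 0.39). The member with the smallest adjusted p there was Abcg1, at 41.8, 52.7 and 76.9 CPM in Balb/c and 5.13, 25.6 and 39 CPM in BL6. Its groups did not overlap, yet its log2 fold change of 1.12 (SE 0.64) had an adjusted p of 0.848 with edgeR. Idi1 at 3.94 and Sqle at 2.77 were the highest of the members and Mvk at -2.18 and Tm7sf2 at -1.90 the lowest, each with an adjusted p of 1 with edgeR and overlapping groups. Of 32 members tested, 0 were called, against 0.3% of 11679 genes. At an unadjusted p under 0.05 there were 0 members with edgeR, and DESeq2 called 0 and had 2 there. Members had a median log2 fold change of 0.03 and all genes 0.08, and 0 of 26 further pathway genes were called.

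In Tregs of the hypothalamus, 22 members were tested between strains and 0 were called by edgeR or by DESeq2, against 0.0389% of 7708 genes. At an unadjusted p under 0.05 there was 1 with edgeR and there were 4 with DESeq2. Srebf1 had the smallest adjusted p of 1 at -5.78 (SE 2.77), with at most 1.67 CPM in 8 Balb/c libraries and 5 of 8 BL6 libraries above that. Scd2 at -5.90 was the lowest of the members and Dhcr7, the last reductase of the route, at 4.66 (SE 5.55) the highest, both with an adjusted p of 1 and overlapping groups. Fdft1 at 3.77 (SE 13.12) was the next highest. The median log2 fold change was -0.67 over members and -0.28 over all genes. Without the libraries that stood apart it was 0.90 over 23 members and 0.06 over all genes, with 0 called and 0 at an unadjusted p under 0.05, and 0 of 19 further pathway genes were called either way.

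Promoter sequences are shown for Sc5d, which differed between strains in both tissues, for Acat2 and Nr1h2, whose strains did not overlap in the rest of the brain, and for Hmgcs1, whose window holds a sterol regulatory element. Of the 34 genes, 27 were matched in a table of RefSeq promoters on GRCm38.p6. Each window held 300 bases, from 250 before to 50 after a start listed there. For some genes, such as Acaca, Srebf1 and Nr1h3, that start lies inside the gene. Some genes had 2 or 3 windows listed, of which 1 stands for the gene. Motifs were searched on both strands in all 27025 windows of the table. The sterol regulatory element TCACNCCAC was in 1.22% of all windows and in 1 of 27 members, Hmgcs1. The E-box CACGTG was in 7.24% of all windows and in 5 of 27 members, Hsd17b7, Sc5d, Scap, Insig1 and Abca1. CCAAT was in 37.9% of all windows and in 19 of 27 members, and the GC box GGGCGG in 35.9% and 19 of 27. Capitals mark matches to the sterol regulatory element, the E-box and CCAAT on either strand, and a match describes letters, not a bound site. The windows are chr9:42264251-42264550 on the minus strand for Sc5d, chr17:12960676-12960975 on the minus strand for Acat2, chr7:44553916-44554215 on the minus strand for Nr1h2 and chr13:119690101-119690400 on the plus strand for Hmgcs1.
Sc5d: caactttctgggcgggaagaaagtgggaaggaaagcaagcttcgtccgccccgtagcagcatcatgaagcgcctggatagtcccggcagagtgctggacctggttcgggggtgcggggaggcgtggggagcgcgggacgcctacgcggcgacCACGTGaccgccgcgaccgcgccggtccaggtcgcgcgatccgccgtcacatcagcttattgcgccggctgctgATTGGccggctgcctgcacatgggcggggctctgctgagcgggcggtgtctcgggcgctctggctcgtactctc
Acat2: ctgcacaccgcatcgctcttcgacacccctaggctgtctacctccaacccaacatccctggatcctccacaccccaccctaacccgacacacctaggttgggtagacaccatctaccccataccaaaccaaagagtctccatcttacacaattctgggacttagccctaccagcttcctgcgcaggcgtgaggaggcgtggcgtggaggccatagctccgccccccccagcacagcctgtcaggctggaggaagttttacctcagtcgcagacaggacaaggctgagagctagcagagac
Nr1h2: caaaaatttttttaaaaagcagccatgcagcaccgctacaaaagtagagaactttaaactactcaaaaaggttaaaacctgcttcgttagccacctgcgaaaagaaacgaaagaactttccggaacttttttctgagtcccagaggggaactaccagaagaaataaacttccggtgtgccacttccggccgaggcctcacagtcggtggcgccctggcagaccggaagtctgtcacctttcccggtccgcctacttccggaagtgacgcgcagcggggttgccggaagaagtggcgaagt
Hmgcs1: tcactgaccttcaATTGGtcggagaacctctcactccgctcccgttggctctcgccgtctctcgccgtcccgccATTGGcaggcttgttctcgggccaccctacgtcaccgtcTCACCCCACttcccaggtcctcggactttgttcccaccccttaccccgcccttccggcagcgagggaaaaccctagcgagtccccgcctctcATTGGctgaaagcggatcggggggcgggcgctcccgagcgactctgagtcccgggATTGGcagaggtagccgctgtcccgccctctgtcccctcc

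Diet left the 34 genes of activated T cells without a called difference in either tissue. In the hypothalamus, Pmvk, the second kinase of the mevalonate branch, came nearest, with 11.2, 22.3 and 26 CPM (lowest, median and highest) in 8 HFHS libraries and 5.24, 10.7 and 20.8 CPM in 8 SD libraries. There 6 of 8 HFHS libraries lay above all SD libraries, at a log2 fold change of 0.83 (SE 0.46) with an adjusted p of 1 with edgeR. Insig1, a brake on SREBP, had 0.713, 3.51 and 15.9 CPM in HFHS and 6.46, 9.85 and 39.8 CPM in SD libraries, at -1.20 (SE 0.73). In 5 of 8 HFHS libraries it lay below every SD library. Lss at 1.63 (SE 1.15) and Acaca, which commits acetyl-CoA to fatty acids, at -2.23 (SE 1.35) had the largest differences, with overlapping groups. Sc5d showed 0.12 (SE 0.21).

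Of 31 members tested between diets in the hypothalamus, edgeR called 0, with 0 at an unadjusted p under 0.05, against 0% of 10846 genes. DESeq2 called 0 and had 1 at that p. Over members the median log2 fold change was -0.03, and over all genes -0.01, with 15 members above 0 and 16 below. By role it was 0.51 for the mevalonate genes, 0.07 from squalene to cholesterol, -0.53 for the sensors, -0.18 for the fatty acid genes and 0.12 for the LXR group. All 5 sensors and all 5 tested fatty acid genes had values below 0, and 0 of 24 further pathway genes were called.

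In activated T cells of the rest of the brain, Fdft1, the squalene synthase, had the smallest adjusted p between diets. It had 8.76, 29.6 and 54.7 CPM in 6 HFHS libraries and 35.3, 58.4 and 91.4 CPM in 7 SD libraries. In 4 of 6 HFHS libraries it lay below every SD library, at -0.81 (SE 0.35) with an adjusted p of 0.96 with edgeR. Scap at 0.78 and Hmgcs1 at 0.55 were the highest of the members and Acaca at -1.91 and Tm7sf2, a sterol reductase, at -1.45 the lowest, each with an adjusted p of 0.999 with edgeR and overlapping groups. Of 32 members tested, edgeR called 0 and had 1 at an unadjusted p under 0.05, against 0% of 12257 genes called, and DESeq2 called 0 and had 3. Members had a median log2 fold change of -0.11 and all genes -0.02, with 12 above 0 and 20 below, and 0 of 26 further pathway genes were called. Fdft1 overlaps the gene Ctsb on the opposite strand by 774 bases, and Ctsb had a median of 677 CPM. Cyp51, named with the pilot, overlaps Akap9 (108 CPM) by 166 bases and Srebf1 overlaps Rai1 (5.54 CPM) by 109 bases, again on opposite strands, so reads of such pairs are uncertain because the use of strand is not stated.

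Tregs of the rest of the brain gave their largest diet differences at Sqle and Idi1, the isomerase of the mevalonate branch, neither of which was called by edgeR. Sqle was at 0 in 3 of 8 HFHS libraries with a median of 13 CPM and a highest level of 34.8 CPM, and at 0 in 4 of 6 SD libraries with at most 1.81 CPM. Its log2 fold change was 7.05 (SE 3.13) with an adjusted p of 0.593 with edgeR, 0.0409 with DESeq2 and 0.0409 to 1 over the alternatives, and 4 of 8 HFHS libraries lay above all SD libraries. Idi1 had 0, 58.3 and 210 CPM in HFHS and 0, 0.16 and 88.1 CPM in SD libraries. It showed 5.29 (SE 2.78) with an adjusted p of 0.848 with edgeR, 0.0169 with DESeq2 and 0.0169 to 1 over the alternatives, and 3 of 8 HFHS libraries lay above all SD libraries. Hsd17b7, a sterol ketoreductase, at -1.97 and Abca1 at -1.74 had the lowest values, both with an adjusted p of 1 with edgeR and overlapping groups.

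Of 32 members tested between diets in these Tregs, edgeR called 0 and had 1 at an unadjusted p under 0.05, against 0% of 11679 genes called. DESeq2 called 2, Sqle and Idi1, against 2.79% of all genes. Sqle passed the filter only through HFHS libraries and so had to differ, and its call supports no difference between diets. The median log2 fold change was 0.11 over members and 0.10 over all genes, with 17 above 0 and 15 below, and 0 of 26 further pathway genes were called. The plot of the mean level per library shows BL6 SD libraries at 2.56 to 3.39, below the other groups of these Tregs save for 1 BL6 HFHS library at 3.22. The mean over all genes was low in the same libraries, with a median of 2.29 in BL6 SD against 2.77 to 2.96 in the other groups.

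In Tregs of the hypothalamus, Fasn was at 0 in 7 of 8 SD libraries, with 0.357 CPM in the library of pool 11_15 that stood apart, and at 0 in 4 of 8 HFHS libraries, with a highest level of 189 CPM. Its log2 fold change of 8.37 (SE 3.74) had an adjusted p of 1 with edgeR, 0.0479 with DESeq2 and 0.0479 to 1 over the alternatives, and 4 of 8 HFHS libraries lay above all SD libraries. Next to it, Pmvk and Insig1 were the highest at 6.05, and Dhcr7 at -5.55 and Hmgcs1 at -5.25 were the lowest, each with an adjusted p of 1 with edgeR and overlapping groups. Of 22 members tested, edgeR called 0 and had 1 at an unadjusted p under 0.05, against 0% of 7708 genes called. DESeq2 called 1, Fasn, against 2.34% of all genes, and had 6 at that p. Fasn passed the filter only through HFHS libraries and so had to differ, and its call supports no difference between diets. Over members the median log2 fold change was 0.24, and over all genes 0.19. Without the libraries that stood apart these were 0.13 and 0.23, with 0 of 23 members called and 6 at an unadjusted p under 0.05. Pmvk, Idi1, Cyp51 and Fasn were then at 0 in all 6 SD libraries. They passed the filter only through HFHS libraries and so had to differ, and no diet difference is read from their p values. Scaling by DESeq2 size factors moved the median of all genes from 0.19 to 0.03 here and from -0.28 to -0.16 between strains of these Tregs.

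Whether diet acted differently by strain was tested as an interaction, in which edgeR called 0 members in each of the 4 sets of libraries. In activated T cells of the hypothalamus Fasn had the smallest adjusted p, of 1, at 2.71 (SE 1.42). It had medians of 16.9 CPM in Balb/c HFHS, 13.3 CPM in Balb/c SD, 5.17 CPM in BL6 HFHS and 34.8 CPM in BL6 SD libraries. Hsd17b7 at 2.40 was the next highest, and Tm7sf2 at -2.93 and Lss at -1.89 were the lowest. In those of the rest of the brain Nr1h2 had the smallest adjusted p, 0.418 with edgeR, at -0.89 (SE 0.44). Its levels were 22.5, 28.5 and 30.3 CPM in 3 Balb/c HFHS libraries, 23.5, 59.7 and 65.4 CPM in 3 Balb/c SD libraries, and 73.6 to 116 CPM in 7 BL6 libraries. Scd2 at -2.48, Tm7sf2 at -1.82, Elovl6, a fatty acid elongase, at 1.72 and Mvk, the first mevalonate kinase, at 2.83-fold had the lowest and highest values there. The called gene Sc5d showed 0.01 in hypothalamic libraries and -0.35 in those of the rest of the brain.

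These counts read against 0% of all genes called in activated T cells of the hypothalamus and 0.963% in those of the rest of the brain, with 0 members at an unadjusted p under 0.05 in either. Median log2 values were -0.19 over members and 0.01 over all genes for the hypothalamus, and -0.29 and -0.00 for the rest of the brain. In Tregs of the rest of the brain edgeR called 0%, with 1 member at an unadjusted p under 0.05, and DESeq2 called 3 members and 4.91% of all genes. Idi1 had the smallest adjusted p there, 0.773 with edgeR and 0.00121 to 0.857 over the alternatives, at -9.70 (SE 2.56). Its levels were 25.2 and 88.1 CPM in the 2 Balb/c SD libraries, 0 to 0.239 CPM in 4 BL6 SD libraries, 35 to 210 CPM in 4 BL6 HFHS libraries and 0 to 189 CPM in 4 Balb/c HFHS libraries. Sqle at -7.72 was the next lowest, and Mvk at 7.81 and Hmgcs1 at 3.45 were the highest, none called by edgeR, and the median was -0.35 over members and 0.05 over all genes.

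Hypothalamic Tregs gave interaction values with wide standard errors. Fdft1 had 17.62 (SE 6.04, adjusted p = 0.26, edgeR, and 1.7e-08 to 0.402 over the alternatives), with all 4 BL6 HFHS libraries at 0 and up to 523 CPM in BL6 SD libraries. Idi1 had 16.72 (SE 6.41), Hmgcs1 -12.96 (SE 5.41) and Nr1h2 -1.43 (SE 3.79). edgeR called 0 of 22 members and 0% of all genes, with 6 members at an unadjusted p under 0.05. DESeq2 called 7 members and 17.2% of all genes, and voom 1 member and 1.43%. The median was 4.68 over members and 0.88 over all genes, and -0.11 and 0.58 without the libraries that stood apart. Without them, too, edgeR called 0 members.

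Between tissues, edgeR called Acat2 and Nr1h2 higher and Abcg1 lower in activated T cells of the hypothalamus than in those of the rest of the brain. All 3 calls were lost with the pool as replicate block, as set out in the last section. Medians of Nr1h2 differed in Balb/c mice but hardly in BL6, and whether a tissue difference differed between strains was not tested. Acat2 had 51.5, 85 and 154 CPM in 16 libraries of the hypothalamus and 10.1, 54.9 and 91.8 CPM in 13 of the rest of the brain. In 7 of 16 it lay above every library of the rest of the brain, at a log2 fold change of 0.88 (SE 0.23, adjusted p = 0.00748, edgeR). Nr1h2 had 52.3, 104 and 131 CPM against 22.5, 73.6 and 116 CPM. Here 3 of 16 lay above all of the rest of the brain and 4 of those 13 below all of the hypothalamus, at 0.61 (SE 0.20, adjusted p = 0.0341, edgeR). Abcg1, the efflux pump, had 8.8, 29.1 and 74.7 CPM against 25.3, 51.4 and 61.7 CPM. In 6 of 16 libraries of the hypothalamus it lay below all of the rest of the brain, at -0.88 (SE 0.22, adjusted p = 0.00442, edgeR).

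For Acat2 and Nr1h2 the lowest libraries of the rest of the brain were those of Balb/c mice, the strain in which both were lower there. Nr1h2 had medians of 110 CPM in the hypothalamus and 29.4 CPM in the rest of the brain in Balb/c, but 90.5 and 88.8 CPM in BL6. Those of Acat2 were 85 and 24.4 CPM in Balb/c and 88 and 69.1 CPM in BL6, and those of Abcg1 39.7 and 52 CPM, then 20.6 and 47.3 CPM. Of 33 members tested, 2 were called higher and 1 lower in the hypothalamus, against 5.62% and 11.9% of all 12799 genes, and 4 had an unadjusted p under 0.05. DESeq2 called the same 3, against 7.84% of all genes higher and 12.1% lower. Members had a median log2 fold change of 0.17 and all genes -0.11, with 20 above 0 and 13 below. Acsl3, an acyl-CoA synthetase, was the only 1 of 27 further pathway genes called, at -6.30 (SE 1.24, adjusted p = 0.000713, edgeR), with 10 of 16 libraries of the hypothalamus at 0, at most 3.11 CPM there, and 0, 5.84 and 18.2 CPM in the rest of the brain.

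Acat2 and Abcg1 kept their calls whichever of the 29 libraries was left out, whereas Nr1h2 lost its call without hypothalamic BL6 SD pool 43_47 (0.0577) or without pools 47_25 (0.0707), 15_21 (0.0716), 16_20 (0.0651) or 32_36 (0.0589) of Balb/c in the rest of the brain. Sc5d was gained as higher in the hypothalamus without BL6 HFHS pool 33_37 (0.44, adjusted p = 0.0495) or Balb/c HFHS pool 47_25 (0.47, 0.0417) of the rest of the brain, or without BL6 SD pool 11_15 (0.45, 0.0385) or BL6 HFHS pool 77_80 (0.44, 0.0425) of the hypothalamus.

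Between tissues in Tregs, Tm7sf2 and Abca1 were called lower in the hypothalamus. Tm7sf2 was at 0 in 14 of 16 hypothalamic libraries with at most 2.14 CPM, and at 0 in 9 of 14 libraries of the rest of the brain with at most 18.2 CPM. There 5 of 14 lay above all hypothalamic libraries. Since it exceeded 10 counts in 1 library of the hypothalamus, it passed the filter only through the rest of the brain and had to differ. Abca1 was at 0 in 12 of 16 hypothalamic libraries with at most 63.5 CPM, and at 0 in 4 of 14 libraries of the rest of the brain with a median of 3.53 CPM and a highest level of 102 CPM. The groups overlapped, with 1 library of the rest of the brain above all hypothalamic ones, at -8.92 (SE 2.42, adjusted p = 0.0271, edgeR).

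Of 33 members tested between tissues in Tregs, 0 were called higher and 2 lower in the hypothalamus, against 0.0875% and 5.49% of all genes, with 7 members at an unadjusted p under 0.05. Without the libraries that stood apart, 0 of 32 were called higher and 4 lower, against 0.0826% and 9.92%, the added genes being Mvk and Lss. Lss then had at most 0.0878 CPM in the hypothalamus, and 7 of 14 libraries of the rest of the brain lay above that. Mvk was at 0 in 13 of 14 hypothalamic libraries, the last of which had 215 CPM, so that its mean was 15.3 CPM there and 5.56 CPM in the rest of the brain, against the sign of its fitted value. Signs ran against the means of CPM in 7 of 33 members, and in 6 of 32 without the libraries that stood apart. Of the called genes Abca1 alone had enough counts in hypothalamic libraries to pass the filter there. Tm7sf2, Mvk and Lss passed only through the rest of the brain and so had to differ, and these counts and medians support no difference of the list. The median log2 fold change was -1.84 over members and -0.88 over all genes, and -2.46 and -1.08 without the libraries that stood apart, with 28 members below 0 either way. DESeq2 called 0 members higher and 8 lower, of which Abca1 was shared, against 0.748% and 13.9% of all genes, and 0 of 27 further pathway genes were called by edgeR. With those libraries left out 2 of 26 were, Erlin2 and Gpam, both at 0 in all 14 hypothalamic libraries and so passing the filter only through the rest of the brain.

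Tm7sf2 lost its call without Balb/c HFHS pool 16_20 (adjusted p = 0.0976) or Balb/c SD pool 37_41 (0.127) of the rest of the brain, with DESeq2 and with voom. Abca1 lost its call without BL6 HFHS pool 77_80 (0.0575) or Balb/c SD pool 42_46 (0.0815) of the rest of the brain. With all libraries and the pool as replicate block, both genes lost their calls. Single libraries of the hypothalamus whose loss added calls were Balb/c SD pool 32_36 (Lss, -6.78, 0.0412), Balb/c HFHS pool 15_21 (Elovl6, -7.47, 0.0496), BL6 HFHS pool 72_76 (Cyp51, -11.13, 0.0346, and Elovl6, -7.42, 0.0341) and BL6 SD pool 11_15 (Mvk, 0.0325). Tm7sf2 shares 532 bases of its strand with Vps51.

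Between Tregs and activated T cells of the hypothalamus, edgeR called Lss and Tm7sf2. Both passed the filter only through activated T cells, with more than 10 counts in 1 of 16 Treg libraries, and so had to differ, and their levels are given as a description. Lss was at 0 in 11 of 16 Treg libraries with at most 29.1 CPM, in the library of pool 32_36 that stood apart, and had 0, 11.3 and 38.3 CPM in 16 libraries of activated T cells. There 2 of 16 libraries of activated T cells lay above all Tregs. Tm7sf2 was at 0 in 14 of 16 Treg libraries with at most 2.14 CPM and in 9 of 16 libraries of activated T cells, which reached 12.2 CPM. In 7 of 16 libraries of activated T cells it lay above all Tregs.

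Without the libraries that stood apart, Lss had at most 0.0878 CPM in 14 Treg libraries, and 14 of 16 libraries of activated T cells lay above all Tregs. Mvk was then called lower with 13 of 14 Treg libraries at 0, but the last, Balb/c SD pool 42_46, had 215 CPM, and its mean was 15.3 CPM in Tregs and 5.04 CPM in activated T cells, against the sign of the fitted value. Stard4 was at 0 in 12 of 14 Treg libraries, with 110 CPM in the highest. Nr1h3 was at 0 in all 14 Treg libraries and in 11 of 16 libraries of activated T cells. It exceeded 10 counts in 3 libraries of activated T cells, and the 0.826 CPM pooled over all 16 of them is at least 69.9-fold above the floor of 3 counts over the Treg libraries. Other leading genes overlapped between the cell types. Ebp had 0.0977, 158 and 354 CPM in 16 Treg libraries and 59.3, 105 and 139 CPM in 16 of activated T cells, and Sc5d had 0, 10.5 and 372 CPM against 60.2 to 281 CPM.

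Of 33 members tested between cell types in the hypothalamus, 0 were called higher and 2 lower in Tregs, against 0.551% and 13.2% of all 11251 genes, with 4 members at an unadjusted p under 0.05. Without the libraries that stood apart it was 0 and 5 (these 2, Mvk, Stard4 and Nr1h3), against 0.566% and 18.3%. Each of these genes passed the filter only through activated T cells, with more than 10 counts in at most 2 Treg libraries, and so had to differ, and the counts and medians over members support no difference of the list. Over members the median log2 fold change was -2.53, and over all genes -0.96, with 4 members above 0 and 29 below, though for 10 of the 33 the sign ran against the means of CPM. Without those libraries the medians were -2.71, also with Nr1h3 at its bound, and -1.16, with 6 members above 0 and 27 below, and 7 signs ran against the means. By role the median was -2.53 for the mevalonate genes, -1.09 from squalene to cholesterol, -2.53 for the sensors, -3.50 for the fatty acid genes and -3.92 for the LXR group. Without those libraries these were, in turn, -3.08, -1.35, -2.37, -2.71 and -5.31. Of 26 further pathway genes 2 were called, both lower, Acss2 with 11 of 16 Treg libraries at 0, and Erlin2, which takes part in sterol-driven protein decay, with 15 of 16 at 0. Without those libraries 5 were, these and Erlin1, Osbp and Ch25h, and all 5 passed the filter only through activated T cells.

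Lss lost its call without BL6 SD pool 67_71 of the activated T cells (-6.06, adjusted p = 0.0777), and Tm7sf2 with voom (0.212, the highest of a range from 0.0014 over other settings). Calls were added without single Treg libraries. They were Mvk without Balb/c SD pool 42_46 (0.00635), Mvd without Balb/c HFHS pool 16_20 (0.023), Acaca (0.00288) and Elovl6 (0.0304) without Balb/c HFHS pool 15_21, and Fasn without BL6 HFHS pool 33_37 (0.00868). Without BL6 HFHS pool 72_76 they were Cyp51 (0.00222), Elovl6 (0.0275), Mvd (0.0405) and Srebf1 (0.0424), and without BL6 SD pool 11_15 they were Insig2 (0.0467), Mvk (0.013) and Nr1h3 (0.00529). DESeq2 called 10 members lower and 0 higher, against 22.4% and 1.18% of all genes, and voom 25 lower and 0 higher, against 65.7% and 0.533%. In the 14 Treg libraries the oligodendrocyte list summed to a median of 438 CPM (0.515 to 813), and its part in the result was not tested.

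In the rest of the brain, no member was called between cell types by both edgeR and DESeq2. The 1 call of edgeR was Nr1h3, the LXR best known from macrophages and liver. It passed the filter only through 2 libraries of activated T cells (3.18 and 3.44 CPM), the only ones with more than 10 counts, so it had to differ and its call supports no difference between the cell types. It was at 0 in all 14 Treg libraries, and in activated T cells at 0 in 8 of 13 with at most 3.44 CPM. Pooled over libraries, activated T cells had 0.556 CPM, which is at least 45.2-fold above the floor of 3 counts over the Treg libraries (0.0123 CPM). Its adjusted p was 0.018 with edgeR, 0.368 with DESeq2 and 0.0131 to 0.368 over the alternatives, and 5 of 13 libraries of activated T cells lay above the Tregs. DESeq2 called 3 members higher and 2 lower, against 6.64% and 12.5% of all genes. They were Srebf2 (1.37) and Nr1h2 (0.81), Abca1 (3.77), Sqle (-2.91) and Stard4 (-2.88), none of them shared with edgeR.

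Of these, Srebf2 had a median of 73.1 CPM in Tregs, from under 1 CPM to 234 CPM, and 9.27, 33.3 and 95.3 CPM in activated T cells of the rest of the brain. In 5 of 14 Treg libraries it lay above all of the other cell type. Sqle had a median of 0.0219 CPM in Tregs, with 7 of 14 at 0, and 2.41, 13.8 and 34.3 CPM in activated T cells, and 10 of 14 Treg libraries lay below all of those. Stard4 had a median of 0.176 CPM against 11.6 CPM, with 9 of 14 Treg libraries below all of the other cell type.

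Of 34 members tested here, 0 were called higher and 1 lower in Tregs, against 4.05% and 11.3% of all 13918 genes, and 5 had an unadjusted p under 0.05. The median log2 fold change was 0.33 over members, also with Nr1h3 at its bound, and -0.28 over all genes, with 23 above 0 and 11 below. Of 27 further pathway genes 2 were called, both higher in Tregs. Hacd3, a dehydratase of fatty acid elongation, had 96.7, 245 and 565 CPM against 32.4, 104 and 165 CPM, at 1.43 (SE 0.25, adjusted p = 0.000342, edgeR), and Elovl5, an elongase, 52.2, 181 and 357 CPM against 62.8, 103 and 169 CPM, at 0.89 (SE 0.26, adjusted p = 0.0201, edgeR). Both overlapped between cell types.

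Without Balb/c SD pool 37_41 or Balb/c HFHS pool 16_20 of the activated T cells, Nr1h3 failed the filter and 0 members were called. Abca1 was gained without BL6 SD pool 67_71 of those cells (4.39, adjusted p = 0.0398) and without Treg pools 38_42 (0.048), 21_25 (0.0411) and 33_37 (0.0423) of BL6 HFHS, 26_31 (0.046) and 47_25 (0.0494) of Balb/c HFHS, 11_15 (0.036) of BL6 SD, or 37_41 (0.0453) of Balb/c SD. Srebf2 was gained without BL6 HFHS pool 33_37 of the activated T cells (0.0406), or without Treg pools 77_80 of BL6 HFHS (0.045) or 67_71 of BL6 SD (0.00463), and Nr1h2 without Treg pool 11_15 of BL6 SD (0.0324).

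The difference between cell types was itself compared between tissues over all 59 libraries, and 1 of 34 members was called. Scd1 had 6.64 (SE 1.84, adjusted p = 0.0107, edgeR), which rests on the BL6 SD Treg library of pool 11_15 that stood apart, where Scd1 had 15.2 CPM against at most 0.113 CPM in the other 15 hypothalamic Treg libraries. Without the libraries that stood apart it was 1.92 with an adjusted p of 0.748, and 0.00256 to 0.748 was the range over the alternatives. Abca1 (-7.68, SE 2.60, adjusted p = 0.0479), Lss and Tm7sf2 were then called by edgeR. Lss and Tm7sf2 exceeded 10 counts in 0 of the 14 hypothalamic Treg libraries left and so passed the filter only through other groups, and no direction is read from their calls.

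These calls, 1 higher and 0 lower, read against 5.85% and 3.62% of all 14723 genes, and 0 higher and 3 lower without the libraries that stood apart against 3.05% and 6.31%. There were 5 members at an unadjusted p under 0.05. The median was -1.21 over members and -0.17 over all genes, with 8 above 0 and 26 below, and -1.55 and -0.49 without those libraries. Scaling by DESeq2 size factors moved the median of all genes from -0.17 to -0.36. Acss2 was the only 1 of 27 further pathway genes called, at -5.91 with an adjusted p of 0.0203 with edgeR, and its levels in hypothalamic Tregs were at most 7.46 CPM. Leaving out those libraries, edgeR called 2 of 27, Acss2 and Erlin2, and Erlin2 was then at 0 in all 14 hypothalamic Treg libraries.

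The pilot gives folds between single libraries, with no test, for the HFHS diet (HFHSD in its labels) against SD and for ob/ob against WT. Counts were scaled by size factors over all 8 libraries, a gene needed more than 20 normalized reads in 1 of the libraries compared, and a fold above 2 or below 0.5 was called. Its libraries held 99925 counts on genes in CD25hi cells of ob/ob mice, 220336 in WT CD4 cells, 1234423 in SD Tregs, 1727379 in ob/ob CD4 cells, 2029515 in HFHSD Tregs, 2173767 in HFHSD naive cells, 3315451 in SD naive cells and 5334511 in WT CD25hi cells. The last of these stood apart, with all 10 microglia genes detected at a sum of 38190 CPM, P2ry12 highest at 99908 counts, the T-cell list at 1477 CPM, 13 counts of Foxp3 and 0 of Cd4, and its pair has no value without it. The SD naive library held 241 counts of Foxp3 and the HFHSD naive library 3.

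In T cells of the hypothalamus labelled naive, several enzymes of the cholesterol route were higher after HFHSD and 3 regulators were lower. Pmvk was 4.88-fold higher (95% interval 3.19 to 7.67, 86 against 30 counts), Cyp51, the lanosterol demethylase, 4.13-fold (3.35 to 5.12, 308 against 127 counts) and Lss, at 129 against 55 counts, by a fold with an interval of 2.89 to 5.58. Elovl6, Acat2, Nsdhl and Hmgcs1 were also called higher, at 3.63-, 3.12-, 2.33- and 2.10-fold. Nr1h2 had a ratio of 0.0105 (0.000265 to 0.0594, 1 against 162 counts), Srebf2 of 0.0341 (0.00695 to 0.102, 3 against 150 counts) and Srebf1 of 0.0618 (0.0245 to 0.13, 7 against 193 counts). Of 20 members with enough reads, 7 were higher and 3 lower, against 24.8% and 37% of all 6686 genes. Their median log2 fold was 0.52 over members and -0.24 over all genes, and of 17 further pathway genes 2 were higher and 8 lower. The balance of members depends on scaling, with 6 higher and 5 lower of 21 by CPM, 8 and 10 of 31 with size factors over the 2 libraries, and 3 and 0 of 13 with more than 20 reads in both. Scaling by CPM moved the median of all genes from -0.24 to -0.48.

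In pilot Tregs, most folds between diets ran against a count of 0. Ebp was at least 179-fold higher after HFHSD (644 against 0 counts), Hmgcs1 at least 137-fold (493 against 0 counts) and Sc5d at least 68-fold (245 against 0 counts). Stard4 was at least 184-fold lower (0 against 459 counts). Insig2 had a ratio of 0.00294 (7.42e-05 to 0.0165, 1 against 283 counts) and Fasn of 0.0126 (0.00151 to 0.0465, 2 against 132 counts). Of 13 members with enough reads, 8 were higher and 4 lower, against 48.2% and 32.3% of all genes, with a median log2 fold of 4.20 over members and 0.78 over all genes. Of 18 further pathway genes 9 were higher and 6 lower. By CPM 8 members of 14 were higher and 6 lower, with medians of 2.40 over members and 0.13 over all genes. With more than 20 reads in both libraries 1 member of 2 was higher and 0 lower. Markers of other cells differed too, and their part in these folds was not tested. In HFHSD and SD Tregs in turn, the astrocyte list summed to 34 and 729.9 CPM and the neuron list to 0 and 339.4 CPM. The B-cell list summed to 0 and 222 CPM and the macrophage list to 751.9 and 0 CPM.

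In CD4 T cells of ob/ob against WT mice, Sc5d was at least 23.6-fold higher (552 against 0 counts), Ebp at least 17.2-fold (402 against 0 counts) and Acly at least 16.6-fold (389 against 0 counts). Dhcr7 had a ratio of 0.00347 (8.55e-05 to 0.0206, 1 against 37 counts), Scap of 0.0159 (0.00863 to 0.0273, 15 against 121 counts) and Acaca of 0.0641 (0.0303 to 0.129, 13 against 26 counts). Of 15 members with enough reads, 11 were higher and 3 lower, against 57.2% and 28.5% of all genes, and the median log2 fold was 1.41 over members and 1.31 over all genes. Of 16 further pathway genes 10 were higher and 6 lower. By CPM 11 members of 17 were higher and 4 lower, and size factors over the 2 libraries moved the median of all genes to 2.35, with 12 members higher and 3 lower. With more than 20 reads in both libraries, the 1 member left was not called, and all 1644 genes turned to 316 higher and 730 lower, with a median of -0.73.

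In CD25hi Tregs of ob/ob against WT mice, where the WT library held the microglia markers above, Ebp was at least 78.1-fold higher (15 against 0 counts) and Acat2 had a ratio of 2.23 (0.682 to 5.72, 5 against 35 counts). Abca1 had a ratio of 0.00941 (0.00256 to 0.0241, 4 against 6642 counts), Msmo1 was at least 27.8-fold lower (0 against 1301 counts) and Scd1 at least 15.3-fold lower (0 against 715 counts). Fdft1 had 0 against 44 counts, which gives no bound at this depth. Of 12 members with enough reads, 2 were higher and 8 lower, against 23.8% and 55% of all genes, and the median log2 fold was -1.96 over members and -1.30 over all genes. Of 17 further pathway genes 3 were higher and 10 lower. The size of the excess of lower members depends on scaling. With size factors over the 2 libraries, 1 of 10 was higher and 8 lower, with a median of -2.36 over members. By CPM, 2 of 10 were higher and 4 lower, with medians of -0.57 over members and 0.02 over all genes, and with more than 20 reads in both libraries 0 of 2 were higher and 2 lower. The part of the microglia RNA in these folds was not tested.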

How the data were processed

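The authors aligned pilot reads to mm10 with BWA and deposited HTSeq counts per gene symbol. For the second experiment the authors ran nf-core/rnaseq 3.16 and deposited Salmon estimated counts and TPM per RefSeq name. Versions of BWA, HTSeq and Salmon are not given. From these, estimated counts were summed over the RefSeq names of each gene (34850 of 35034 names matched, 99.5%, giving 24461 genes) and rounded to whole numbers for tests. Members and lists were chosen with earlier results of these data known.

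A gene was tested if it exceeded 10 counts in a number of libraries no lower than the size of the smallest group. Tests used edgeR 4.0.16 (TMM scaling, quasi-likelihood), the other factors as terms, at a Benjamini-Hochberg adjusted p under 0.05 over all genes of each of 12 comparisons and 5 interactions. For edgeR, SE is the absolute log2 fold change divided by the square root of the F statistic, not a separate estimate. Levels are log2(CPM + 1). Alternatives were DESeq2 1.42.0, its size factors, more than 10 counts in total, filterByExpr, limma 3.58.1 voom with quality weights, each strain alone for diet, the pool as replicate block, and each library left out. Leaving out the 2 libraries that stood apart was added after seeing the data. The diet fits of activated T cells of the rest of the brain and of hypothalamic Tregs, and the pilot folds, were first tested on simulated counts.

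Members passing the test are named with full values, up to 12 by size. Where none passed, the smallest adjusted p and the 2 largest values in each direction are named. For the 30 further pathway genes, up to 3 called per direction are named, and for the 13 marker lists the sum. In the pilot, folds used median-of-ratios size factors over 786 genes, Clopper-Pearson 95% intervals and a floor of 3 counts, and the 3 highest and 3 lowest members are named. Other tools were R 4.3.3, Python 3.11.15, numpy 2.4.6, pandas 2.3.3, scipy 1.17.1 and matplotlib 3.10.9.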

Additional observations from a re-analysis of the deposited data

Results flagged for a closer look

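Single libraries lay far from the rest of their group in 7 of 138 groups tested, where chance marks about 1 in 20 groups. The mevalonate genes had a mean log2(CPM + 1) of 4.65 in the hypothalamic BL6 SD Treg library of pool 11_15, against 0.86 to 1.08 in the others of its group. In the same library, among SD Tregs of the hypothalamus, Fasn had 0.44 and Pmvk 4.43, against 0.00 in the others. The LXR and transport genes had a mean of 3.84 in the BL6 SD library of pool 67_71 of activated T cells of the rest of the brain, apart from the others by 0.931 of its group's range. In activated T cells of the hypothalamus they had 3.99 in the BL6 HFHS library of pool 72_76, against 3.01 to 3.09. Lss had 0.51 in the Balb/c SD library of pool 37_41 of activated T cells of the rest of the brain, against 2.12 to 2.94 in the other Balb/c libraries. Idi1 had 0.00 in the Balb/c HFHS Treg library of pool 47_25 of the rest of the brain, against 5.12 to 7.72 in the other HFHS libraries. The difference between cell types of Scd1 differed between tissues, at 6.64 with an adjusted p of 0.0107 with edgeR, but at 1.92 with an adjusted p of 0.748 without the libraries that stood apart.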

How the results depend on the processing

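Of the counts of called members, 82 stayed within 1.5-fold of edgeR's under other settings and 30 moved, and 213 stayed and 23 moved with 1 library left out. Of values of named members, 304 were the same, 14 weaker, 9 stronger and 4 reversed under other settings, and 676, 30 weaker and 7 reversed with 1 library left out. The cause was not tested. By comparison, the moved counts were these. Diet in Tregs gave 1 with DESeq2 in the hypothalamus and 2 with it in the rest of the brain. Cell type in the hypothalamus gave 10 with DESeq2, 25 with voom, 22 with the pool as replicate block, 23 with that block without the libraries that stood apart, 5 without them, and 1 to 6 with 1 library left out. Cell type in the rest of the brain gave 5 with DESeq2, 2 with its size factors, 3 with more than 10 counts in total, 5 with voom, 2 with the block and 0 to 3 with 1 left out. Strain in activated T cells of the rest of the brain gave 3 to 6 with 1 left out. Tissue in activated T cells gave 5 with more than 10 counts in total, 0 with the block and 2 to 4 with 1 left out. Tissue in Tregs gave 8 with DESeq2, 17 with voom, 0 with the block, 4 without the libraries that stood apart, 3 with both, and 1 to 4 with 1 left out. Diet by strain in Tregs gave 7 with DESeq2 and 1 with voom in the hypothalamus, and 3 with DESeq2 in the rest of the brain. Cell type by tissue gave 4 with DESeq2, 18 with voom and 3 without the libraries that stood apart. In the pilot, naive cells gave 18 with size factors over 2 libraries and 3 with more than 20 reads in both, Tregs 1 and CD4 cells 0 with more than 20 reads in both, and CD25hi cells 6 with CPM and 2 with more than 20 reads in both.

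Values that reversed were, for diet in hypothalamic Tregs, Hmgcs1 (0.92 in BL6 alone, -8.80 to 0.18 with 1 library left out), and for strain there Fdft1 (-1.11 to 6.74 with 1 left out). In Tregs of the rest of the brain they were, for diet, Hsd17b7 (1.03 with voom, -2.75 to 0.05 with 1 left out), and for strain Idi1 (-1.85 with voom), Mvk (0.18 with voom) and Tm7sf2 (-4.49 to 0.50 with 1 left out). With the block, edgeR's calls between tissues were all lost in activated T cells (Acat2 0.0692, Nr1h2 0.135, Abcg1 0.268) and in Tregs (Abca1 0.213, Tm7sf2 0.323), as was that of Nr1h3 between cell types in the rest of the brain (0.0696). The mean level was lowest in Tregs of the hypothalamus and next lowest in those of the rest of the brain under each setting. Under log2(CPM + 0.1) these had -0.39 and 3.12, and activated T cells 3.52 (hypothalamus) and 3.62 (rest of the brain), an order that turned from 4.09 and 4.07. Profiles of libraries sharing a pool number correlated beyond 0.1 in 0 of 15, 2 of 12, 0 of 9 and 0 of 10 pairs. These were deviations of single libraries from means of 2 to 4, so low correlations cannot show that the mice differed. Whether a shared number means the same mice is not stated, and the calls lost with the block stay uncertain.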
